A study of Mus musculus with 18 samples.

Results

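The regions described here are sites that carried an H3K4me2 peak in preNeu and in matNeu cells but not in GMPs, and that CHD4 did not occupy in wild-type (WT) GMPs. Granulocyte-monocyte progenitors (GMPs) give rise to neutrophils through a dividing precursor stage (preNeu) and end in the mature cell (matNeu). A region was taken when a preNeu H3K4me2 peak shared at least 1 bp with a matNeu H3K4me2 peak, with no H3K4me2 peak of GMPs and with no CHD4 peak of WT GMPs. This held for 11313 of 49578 preNeu H3K4me2 peaks, or 22.8% of the peaks and 14.4% of the length they cover. They are called gained regions below. The regions were selected on the peak calls of the H3K4me2 and CHD4 lists, so their H3K4me2 and CHD4 values are given as a description with no test.

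All cells came from the bone marrow of C57BL/6 mice aged 6 to 12 weeks, and every list and library behind the gained regions was of the WT genotype. GMPs were sorted as lineage-negative, cKIT-positive, SCA1-negative cells with CD16/32 and CD34, preNeu cells as Mac-1+ Gr-1+ cells with high cKIT and intermediate CXCR4, and matNeu cells as CXCR2+ cells without Siglec F. Each H3K4me2, CHD4 or ATAC-seq list came from 1 library, and RNA-seq was done on 3 libraries per cell type. The lists and the expression table hold no read counts, so depth is unknown. Expression followed the stage labels. TPM is a transcript's share of the RNA of its library. The summed TPM of 5 GMP markers was 42519 to 44120 in GMPs, 7559 to 8639 in preNeu cells and at most 25.8 in matNeu cells. That of 6 preNeu markers was 105723 to 134153 in preNeu cells, 4352 to 6675 in matNeu cells and at most 120 in GMPs. That of 6 matNeu markers was 30185 to 33576 in matNeu cells, 888 to 1058 in preNeu cells and at most 167 in GMPs. Of 7 lists of markers of other cell types, 6 had higher sums in every GMP library than in every matNeu library, such as 3835 to 4621 TPM against 1130 to 1495 TPM over 6 monocyte markers, and the sums of 5 B cell markers overlapped. None of these markers was listed at 0 in all libraries, and the part of such cells in the expression results was not tested. In sorted bulk samples fewer cells of a type and less RNA per cell cannot be told apart.

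H3K4me2 is histone H3 dimethylated on lysine 4, a mark found at promoters and at distal enhancers, including enhancers that are primed before their gene is transcribed. CHD4 is the ATP-dependent remodeling subunit of the NuRD complex, which also carries histone deacetylases. Neutrophils fill their granules in waves. Primary granule proteins such as myeloperoxidase are made in early precursors, secondary granule proteins such as lactoferrin follow in cells that still divide, and tertiary granule proteins such as gelatinase appear last. C/EBP factors and PU.1 are the best known DNA-binding regulators of this program, and ATAC-seq reads out DNA that is open to a transposase.

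The sequences of 5 gained regions with an ATAC-seq peak are shown, because in these letters of a C/EBP motif lay near the middle of the open DNA beside a gene described below. Each is 200 bases of the plus strand of GRCm38 (mm10) and overlaps no annotated exon. The capitals mark TTGCNNAA, the C/EBP letters, read on either strand.
Alox5, intron, chr6:116417605-116417804: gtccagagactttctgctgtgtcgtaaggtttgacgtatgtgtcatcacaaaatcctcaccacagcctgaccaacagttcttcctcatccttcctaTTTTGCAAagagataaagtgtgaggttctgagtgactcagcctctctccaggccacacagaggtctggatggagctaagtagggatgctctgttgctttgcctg
Plbd1, intergenic, chr6:136675125-136675324: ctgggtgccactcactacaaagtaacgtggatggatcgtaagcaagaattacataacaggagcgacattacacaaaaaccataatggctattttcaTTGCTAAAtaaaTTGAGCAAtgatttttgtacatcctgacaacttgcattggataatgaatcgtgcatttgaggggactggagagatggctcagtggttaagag
Syne1, intron, chr10:5161585-5161784: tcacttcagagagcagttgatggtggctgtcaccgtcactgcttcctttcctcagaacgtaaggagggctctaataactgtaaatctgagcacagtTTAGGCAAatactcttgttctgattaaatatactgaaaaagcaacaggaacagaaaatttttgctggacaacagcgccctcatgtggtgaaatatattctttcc
Irf2, intron, chr8:46778192-46778391: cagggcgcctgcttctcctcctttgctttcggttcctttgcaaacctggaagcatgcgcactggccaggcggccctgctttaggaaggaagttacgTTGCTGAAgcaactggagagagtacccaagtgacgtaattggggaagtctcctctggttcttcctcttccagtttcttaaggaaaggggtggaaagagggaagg
Itpr1, intron, chr6:108466240-108466439: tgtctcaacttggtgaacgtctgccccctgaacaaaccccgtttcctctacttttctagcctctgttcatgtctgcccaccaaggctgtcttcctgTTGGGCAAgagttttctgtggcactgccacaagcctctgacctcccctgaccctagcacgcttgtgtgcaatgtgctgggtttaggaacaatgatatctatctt
The Plbd1 sequence holds the C/EBP letters in 2 places, and the other four hold them once. The matches are matches of letters and do not show that a factor was bound. The genes beside them include Alox5, which encodes the lipoxygenase of leukotriene synthesis.

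Gained regions were intermediate in width and height among the compared kinds of preNeu peak. Their widths had a median of 946 bp, with quartiles of 576 and 1558 bp and a widest region of 16939 bp, and the median fold enrichment over the control track was 3.77 in preNeu cells (range 1.67 to 17.8). The overlapping matNeu peaks had a median fold of 3.04. In 9136 of 11313 gained regions the preNeu peak had the higher fold, although the lists were not scaled to each other. By contrast, preNeu peaks shared with GMPs and matNeu cells had a median fold of 8.26 and a median width of 2269 bp. For peaks found only in the preNeu list these medians were 2.8 and 420 bp, and for gained peaks with CHD4 in GMPs 4.32 and 1265 bp. Gained regions made up 39.9% of the preNeu peaks with a fold of 3.8 to 4.55 but 0.282% of the top decile, where 99.6% of peaks overlapped a GMP peak. The GMP list was itself lower, with a maximum fold of 7.98 against 120 in preNeu and 65.3 in matNeu cells, and a median −log10 q of 2.41 against 6.96 and 5.06. A gain of the mark and a less sensitive GMP list cannot be told apart.

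Some members lay close to the limits of the rule. The smallest overlap with a matNeu peak was 1 bp, and 96 members overlapped one by under 50 bp. The nearest GMP peak was 5 bp away at the closest and 11174 bp away at the median, and 154 members had one within 500 bp. For 443 members on assembled chromosomes (3.92%), the overlapping matNeu peak itself reached a GMP peak. On the other side of the limit, 49 preNeu peaks with a matNeu peak were left out for a GMP overlap of under 50 bp. The nearest CHD4 peak was at least 7 bp away, with a median of 23967 bp, and 85 members had one within 500 bp.

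Most gained regions were distal. The middle of the region lay in an intron in 46.9% and between genes in 42.3%, in a UTR in 2.2%, in a coding exon in 1.92%, and in a promoter in 6.62%. A promoter here spans 2 kb upstream to 500 bp downstream of a transcription start site (TSS) of a protein-coding gene in GENCODE M21. Counting any overlap, 9.38% of gained regions touched a promoter (95% Wilson interval 8.86 to 9.93). The share was 53.7% among preNeu peaks shared by all 3 stages, a difference of −44.3 points (95% Newcombe interval −45.1 to −43.5). Against gained peaks that did overlap a CHD4 peak in GMPs, at 7.1%, the difference was 2.28 points (1.3 to 3.21). These intervals cover counting error only. Peaks of all 3 stages and peaks found only in the preNeu list were taken throughout with or without a CHD4 peak in GMPs. A CHD4 peak of WT GMPs overlapped or lay within 5 kb of 42.1% and 34.7% of them, against 17.8% of gained regions. The part of CHD4 in the differences from these peaks was not tested. The nearest TSS was under 2 kb away in 9.42%, 2 to 10 kb away in 29.9%, 10 to 50 kb away in 40.4%, 50 to 100 kb away in 10.5% and farther in 9.78%. The median distance was 14571 bp, and 47.8% of the regions lay upstream of that TSS.

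**Figure D1:**
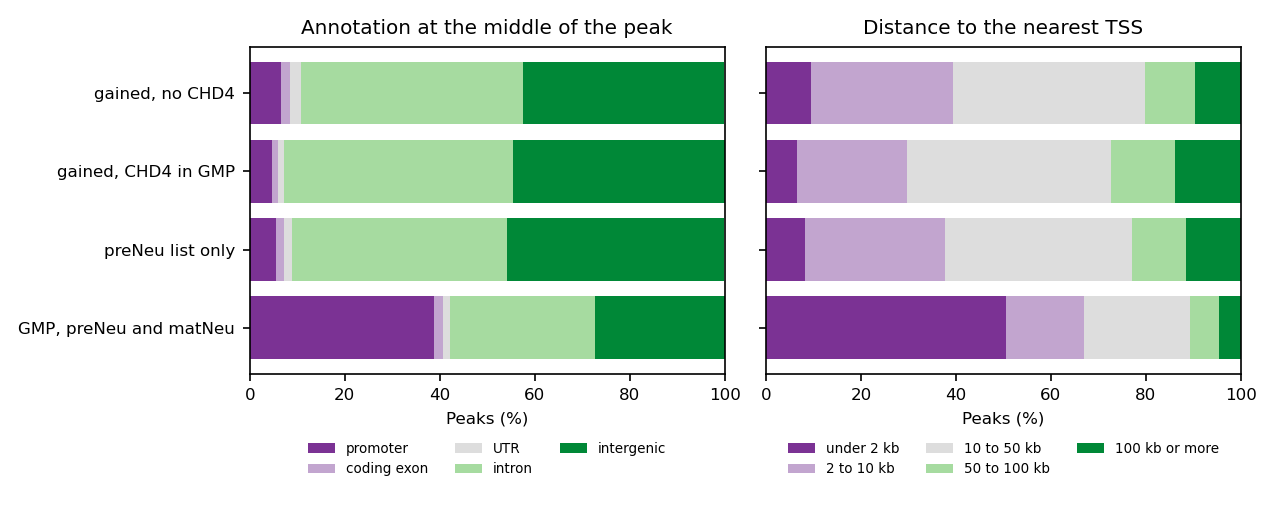
The left bars give the percent of preNeu H3K4me2 peaks by the annotation at their middle, and the right bars by distance to the nearest protein-coding TSS, for the gained regions, gained peaks with a CHD4 peak in GMPs, peaks found only in the preNeu list, and peaks found in all 3 stages. Introns and intergenic DNA hold most gained regions (46.9% and 42.3%), whereas 53.7% of the peaks of all 3 stages touch a promoter.

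Few gained regions held an ATAC-seq peak. The share was 5.93% (670 regions, interval 5.51 to 6.39), compared with 41.2% of peaks in all 3 stages (difference −35.3 points), 14% of gained peaks with CHD4 in GMPs (−8.03 points, −9.2 to −6.91) and 0.26% of peaks found only in the preNeu list (5.67 points higher). Away from promoters the shares were 5.68%, 18.7%, 13.4% and 0.253%. Within the gained regions the share followed the height of the H3K4me2 peak, from 1.68% of the 2258 lowest regions by fold to 16.7% of the 2258 highest. Regions with an ATAC-seq peak were wider (median 2029 bp against 909 bp) and higher in preNeu fold (median 5.55 against 3.69) than those without. The ATAC-seq lists labelled preNeu and matNeu were identical in position and value and served as 1 list, so no change of accessibility between the stages is given.

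At the middle of the peak, the C/EBP letters were more frequent in distal gained regions than in distal peaks of all 3 stages. They were less frequent than in distal peaks found only in the preNeu list. Over all places, median widths were 946 bp for gained regions and 2269 bp for peaks of all 3 stages, and the part of width was not tested. With the window centred on an ATAC-seq peak, the difference from peaks of all 3 stages had an interval that included 0. In the 400 bp around the middle, away from promoters, TTGCNNAA was found in 24.5% of gained regions (interval 23.7 to 25.4) and in 18.9% of the peaks of all 3 stages, a difference of 5.67 points (4.56 to 6.79). Distal peaks found only in the preNeu list held the letters in 25.9%, so that gained regions differed from them by −1.38 points (−2.66 to −0.105), and all distal preNeu peaks held them in 23.1%. In windows placed 2 kb downstream of the same regions the share was 15.6%. Gained regions had a median GC content of 46.2% and the peaks of all 3 stages 48.5%, and in each of 5 classes of GC content the gained regions had the higher share, from 31.5% against 25.6% under 40% GC to 12.5% against 9.91% from 55% GC on. Gained peaks with CHD4 in GMPs held the letters in 26.4% (−1.82 points, −3.47 to −0.211). Over all preNeu H3K4me2 peaks, promoters included, the share was 20.1%, against 24.2% of the gained regions.

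The PU.1 letters GAGGAAGT were found in 7.68% of distal gained regions and in 7.8% of the distal peaks of all 3 stages, a difference of −0.117 points (−0.839 to 0.606), while the windows 2 kb downstream held them in 2.39%. Gained peaks with CHD4 in GMPs held them in 11.3%, which was 3.58 points more. Of all distal preNeu peaks, 8.16% held them. The AP-1 letters TGANTCA were found in 12.9% of distal gained regions, in 16.4% of those with CHD4 and in 11.8% of the downstream windows, with 13.2% of all distal preNeu peaks. The RUNX letters TGTGGT occurred in 32.6% and 34.6%, against 29.7% downstream and 32.6% of all distal preNeu peaks. With the window centred on the ATAC-seq peak, 27.9% of 581 distal gained regions held the C/EBP letters and 14.8% held the PU.1 letters. In the peaks of all 3 stages those shares were 26.0% and 14.2%. The differences of 1.89 points (−2.11 to 6.1) and 0.573 points (−2.52 to 4.01) both have intervals that include 0.

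The letters of 5 further factors were searched in the same distal windows. The GFI1 letters AAATCA were found in 24.5% of gained regions, 26.6% of the downstream windows and 23.6% of all distal preNeu peaks. The share in the peaks of all 3 stages was 21.5%, which was 3.01 points lower (1.88 to 4.15). The IRF letters AANNGAAA were found in 44.4% of gained regions, 41.6% of the downstream windows and 45.5% of all distal preNeu peaks, with a difference from the peaks of all 3 stages of 0.994 points (−0.346 to 2.33). The KLF letters GGGNGTGG occurred in 13.1%, 11.4% and 13.5%, and gained regions held them less often than the peaks of all 3 stages, by −2.81 points (−3.76 to −1.86). The GATA letters AGATAA occurred in 19.5%, 21.1% and 19.6%, and the STAT letters TTCCNGGAA in 1.61%, 1.25% and 1.51%. For GFI1 and GATA the share in gained regions was below that of their own downstream windows. The C/EBP palindrome TTGCGCAA, which is one form of TTGCNNAA, was found in 0.166% of distal gained regions and 0.195% of all distal preNeu peaks.

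**Figure D2:**
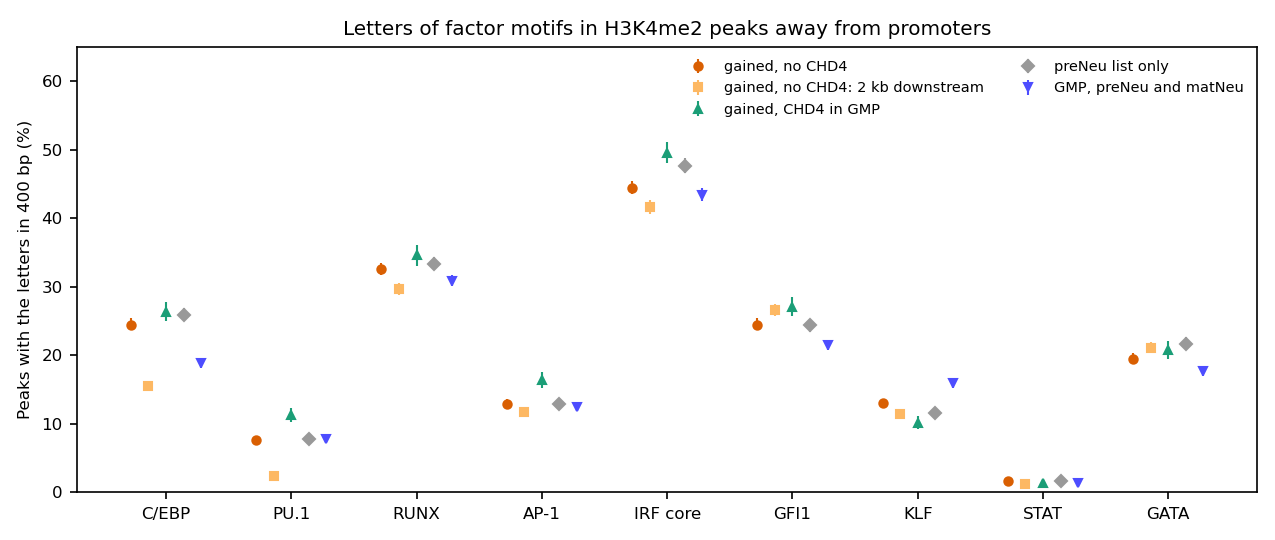
Points give the percent of H3K4me2 peaks away from promoters whose middle 400 bp hold the letters of each factor's motif on either strand, and lines give 95% Wilson intervals. Gained regions (circles) lie above peaks of all 3 stages (downward triangles) for C/EBP, at 24.5% against 18.9%, and above their own windows 2 kb downstream (squares, 15.6%).

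For expression, each gained region was given to the protein-coding gene with the nearest TSS within 100 kb. This assigned 10185 regions to 5606 genes, of which 3312 had 1 region, 1166 had 2, 568 had 3 and 560 had 4 or more. Of these genes 4141 (73.9%) were expressed enough to be tested, reaching 1 TPM in 3 or more libraries, compared with 54.3% of all protein-coding genes in the table. Seen from the genes, 25.7% of the protein-coding genes in the table and 34.9% of those tested had a gained region, which is the background for the gene lists below. The other 1465 genes were below that level. Changes are differences of mean log2(TPM + 1) with standard errors (SE) from limma, and a change was called at a Benjamini-Hochberg adjusted p under 0.05 over all 13061 genes tested. The log2(TPM + 1) scale understates changes of low genes.

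Genes with a gained region were higher in neutrophil stages more often than genes at large. In preNeu against GMP, 998 of 4141 were higher (24.1%, against 14.7% of all genes tested) and 1530 were lower (36.9%, against 44.3%). In matNeu against GMP, 1352 were higher (32.6%, against 22.8%) and 1927 were lower (46.5%, against 54.1%). In matNeu against preNeu, 1227 were higher (29.6%, against 22.9%) and 1597 were lower (38.6%, against 39.8%). More of them were thus lower than higher in each comparison. The median log2 changes were −0.22, −0.41 and −0.19, against −0.52, −0.92 and −0.32 over all genes tested. Regions were assigned to protein-coding genes only, while all genes tested include others. Of the 11865 protein-coding genes tested, 15.4%, 22.6% and 22.6% were higher in these comparisons in the same order. The lower shares were 46.7%, 57.3% and 42.7%. The mean TPM was highest in matNeu cells for 34.7% of genes with a gained region, in preNeu cells for 20.3% and in GMPs for 45%. Over all genes tested these shares were 28.8%, 15.3% and 55.8%. The higher shares were not particular to gained regions. Of 3399 tested genes nearest a peak found only in the preNeu list, 21.2% were higher in preNeu cells and 25.9% in matNeu cells than in GMPs. For 1748 genes nearest a gained peak with CHD4 in GMPs, these shares were 27.7% and 40.1%. A gene can be in several of these sets.

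TPM is relative to the RNA of each library, and the balance of higher and lower calls depended on the scaling. After dividing by median-ratio factors, which moved the median of all genes in preNeu against GMP from −0.52 to −0.16 and in matNeu against GMP from −0.92 to −0.25, 1419 genes with a gained region were higher in preNeu cells than in GMPs (34.3%, against 21.5% of all genes) and 1022 were lower (24.7%, against 30.6%). In matNeu against GMP, 1868 were then higher (45.1%, against 33.7%) and 1454 lower (35.1%, against 42.5%), and in matNeu against preNeu 1582 were higher (38.2%, against 30.8%) and 1326 lower (32.0%, against 33.3%). The share of higher genes stayed above that of all genes under both scalings.

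The shift grew with the number of gained regions. Of genes with 1, 2, 3 and at least 4 regions, 18.6%, 25.9%, 31.7% and 39.2% were higher in preNeu cells than in GMPs, against 10.7% of 7724 protein-coding genes with none. The share lower in matNeu cells than in GMPs went from 63.0% with none to 53.1%, 42.5%, 38.3% and 30.7%. The median change of matNeu against GMP went from −1.35 with none to −0.81, −0.17, 0.13 and 0.52. Long genes have room for more regions, and the median gene length rose alongside from 16.9 kb with none to 110 kb with at least 4. Among genes of 40 kb or longer, the share higher in preNeu cells went from 9.71% with none to 13.7% with 1, 27.1% with 2 or 3 and 38.9% with at least 4. From 15 to 40 kb it went from 10.9% to 20.2%, 27.9% and 50.9% (55 genes with at least 4). Under 15 kb it went from 11.1% to 24.5% and 31.8%, and was 26.3% in the 38 genes with at least 4, so the order did not hold at that last step.

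**Figure D3:**
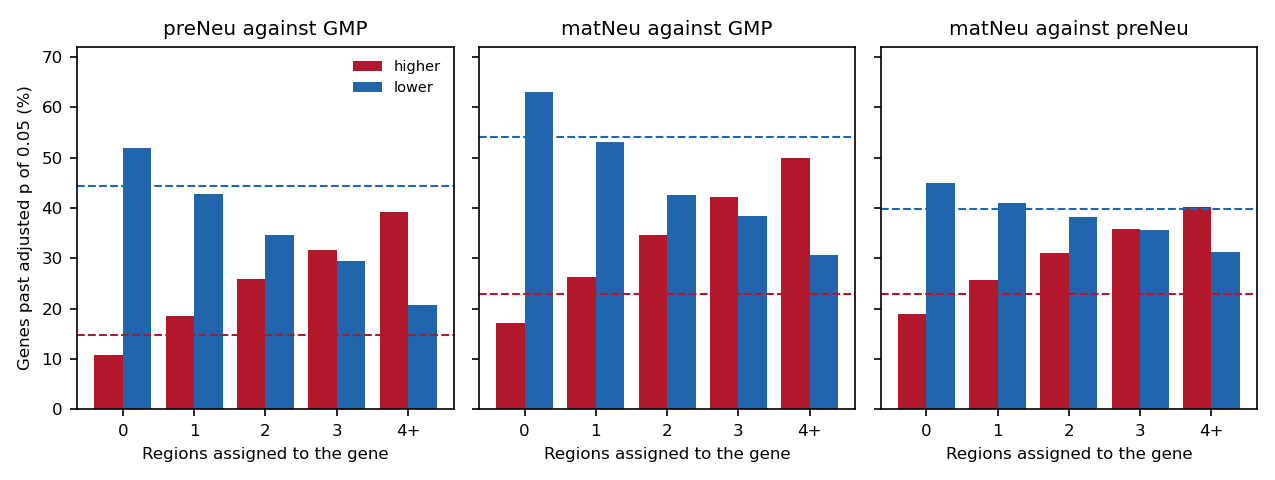
Bars give the percent of tested genes called higher (red) or lower (blue) in each comparison, by number of gained regions assigned to the gene, and dashed lines give the same over all 13061 genes tested. The higher share rises and the lower share falls from left to right in all 3 panels, from 10.7% to 39.2% higher in preNeu against GMP.

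Distance and open chromatin moved with the same shares. A gene with more gained regions has more chances of a close one, one at its promoter or one with an ATAC-seq peak. In preNeu against GMP, 25.7% of genes whose closest gained region was within 10 kb of the TSS were higher, against 22.8% from 10 to 50 kb and 12.0% from 50 to 100 kb. Genes with a gained region at their own promoter (741 tested) were higher in 28.1%. The 467 genes with a gained region that held an ATAC-seq peak had a median change of 0.63 in matNeu against GMP, with 50.3% higher and 30.6% lower, whereas the genes whose regions held none had a median of −0.51. Of the genes with gained regions, 24.7% also had a gained peak with CHD4 in GMPs nearby. The 1153 of them that were tested were higher in matNeu cells than in GMPs in 44.5%. The share was 28.1% of the 2988 tested genes with a gained region and no such peak. It was 31.6% of the 595 genes with only a peak of the CHD4 kind. Median gene lengths in these sets were 80.6, 34.6 and 35.7 kb in that order. Genes of the first set have gained peaks of both kinds by definition. The parts of peak number and gene length were not tested in any of the comparisons by distance, promoter, ATAC-seq peak or CHD4.

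The region with the highest fold lay in Itgb2l, which encodes an integrin beta chain of neutrophils. It spanned 7122 bp at chr16:96437692-96444813, over the promoter and the first part of the gene. The region had a preNeu fold of 17.8, overlapped a matNeu peak of fold 12.6 and held an ATAC-seq peak. Itgb2l was at 1.42, 0.458 and 0.141 TPM in the GMP libraries, at 879, 951 and 1048 TPM in preNeu and at 228, 293 and 191 TPM in matNeu cells. The 3 groups did not overlap, and preNeu cells were highest, with a log2 change of 9.23 ± 0.26 (SE) against GMPs (adjusted p = 1.99e-09, limma). Syne1, which encodes the giant nuclear envelope protein nesprin-1, held 9 gained regions over 32907 bp, including 2 of the 6 with the highest folds (14 and 11.6). It was at 9.8, 7.98 and 9.19 TPM in GMPs, 174, 208 and 230 TPM in preNeu and 47.7, 50.0 and 45.5 TPM in matNeu cells. Its levels followed the order of Itgb2l, with a preNeu gain of 4.35 ± 0.15 on the log2 scale (adjusted p = 8.27e-09, limma) and a later drop of −2.07 ± 0.15.

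The other regions of highest fold lay near 9830107B12Rik (11.8), Pglyrp1 (11.6) and Adamts2 (11.6). 9830107B12Rik was at 0.3, 0.108 and 0.0496 TPM in GMPs, 73.1, 70.9 and 70.0 TPM in preNeu and 141, 171 and 145 TPM in matNeu cells, and so increased at both steps. Pglyrp1, a bactericidal peptidoglycan recognition protein of granules, was at 21, 31.0 and 40.5 TPM in GMPs, 824, 668 and 634 TPM in preNeu and 1147, 1030 and 680 TPM in matNeu cells. Its preNeu and matNeu values overlapped, and both were above all GMP values. Adamts2, a procollagen-processing protease, stayed at 0.402 to 0.609 TPM in preNeu cells and at 0.471 to 0.571 TPM in GMPs, and reached 1.27 to 1.79 TPM in matNeu cells (log2 change 0.73 ± 0.23 against GMPs, adjusted p = 0.0134, limma). The region lay between genes, 45725 bp upstream of the Adamts2 TSS, and was tied to Adamts2 only as the nearest TSS. A tall gained region was thus assigned to a gene scarcely expressed at any stage. Whether it acts on that gene was not tested.

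Secondary granule genes formed the clearest preNeu group. Of the 20 listed genes, 10 had a gained region, and all 10 were higher in preNeu cells than in GMPs with either scaling. Of these 10, 9 were higher in matNeu cells than in GMPs and 7 were lower in matNeu than in preNeu cells. The 20 listed genes were likewise all higher in preNeu cells, with or without a gained region. Ngp, which encodes a cathelicidin-related granule protein, lay under the second widest region (13810 bp, fold 10.7), which had its middle in the promoter and held an ATAC-seq peak. It was at 12.6, 10.5 and 9.18 TPM in GMPs, 82697, 73686 and 57803 TPM in preNeu and 2075, 3245 and 1529 TPM in matNeu cells. No value of one stage reached those of another. Camp, the cathelicidin gene, increased by 12.02 on the log2 scale in preNeu cells (adjusted p = 1.69e-09, limma) and Lyz2, a lysozyme gene, by 5.30 (adjusted p = 1.13e-08, limma). Ear2, an eosinophil-associated ribonuclease gene, was the member lower in matNeu cells than in GMPs (−1.72, adjusted p = 1.15e-04, limma). Ear2 has close copies, and reads shared with them make its level uncertain. Anxa1, which encodes annexin A1, had 4 regions and was at 418 to 496 TPM in GMPs, 6710 to 7269 TPM in preNeu and 2751 to 4086 TPM in matNeu cells.

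Tertiary granule genes with a gained region were higher at the end than at either earlier stage, with the larger rise at the first step for some and at the second for others. Of 13 listed genes 8 had a gained region, and all 8 were higher in matNeu cells than in GMPs and than in preNeu cells, while 7 were already higher in preNeu cells, with either scaling. Of all 13 listed genes, with or without a region, 9 were higher in preNeu and 12 in matNeu cells than in GMPs. The median change of the 8 was 5.05 in preNeu against GMP and 4.30 in matNeu against preNeu on the log2 scale. Mmp9, the gelatinase gene, had 2 small regions of fold 3.6 and 2.57 located 14096 and 4276 bp upstream of its TSS. It was at 0.852, 0.87 and 1.3 TPM in GMPs, 359, 459 and 387 TPM in preNeu and 6334, 6594 and 6688 TPM in matNeu cells. Its change in matNeu against GMP, 11.68 ± 0.13 on the log2 scale, was the largest increase among genes with at least 2 gained regions (adjusted p = 3.40e-12, limma). Asprv1, an aspartic protease gene of 1.55 kb, had 7 regions, 6 of them between 7907 and 48443 bp upstream of the TSS and the widest at 12808 bp. It was at 0, 0.655 and 0.255 TPM in GMPs, 6.4, 9.95 and 5.83 TPM in preNeu and 816, 866 and 851 TPM in matNeu cells. Of the upstream regions, 3 held an ATAC-seq peak. Plbd1, a phospholipase-like granule gene with 4 regions, had already reached 931 to 1047 TPM in preNeu cells from 2.18 to 2.41 TPM in GMPs, and was at 1120 to 1339 TPM in matNeu cells. Adam8, a membrane protease gene, had 1 region of 4287 bp over its promoter. The region had a preNeu fold of 5.81 and overlapped a matNeu peak of fold 7.03. Adam8 was at 0, 1.32 and 0.174 TPM in GMPs, 22.2, 30.0 and 36.5 TPM in preNeu and 1032, 1184 and 1340 TPM in matNeu cells.

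Among 12 listed primary granule genes, 1 had a gained region, namely Ctsz, which encodes cathepsin Z. The share was 25.7% over all protein-coding genes in the table and 34.9% over those tested, and the difference from the list was not tested. Ctsz was at 944, 767 and 898 TPM in GMPs, 200, 238 and 210 TPM in preNeu and 266, 205 and 240 TPM in matNeu cells, so it fell at the first step (−2.00 ± 0.13 on the log2 scale, adjusted p = 8.31e-07, limma) to a level at which the later groups overlapped. Of the 11 primary granule genes tested, 8 were lower in preNeu cells and 10 in matNeu cells than in GMPs.

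**Figure D4:**
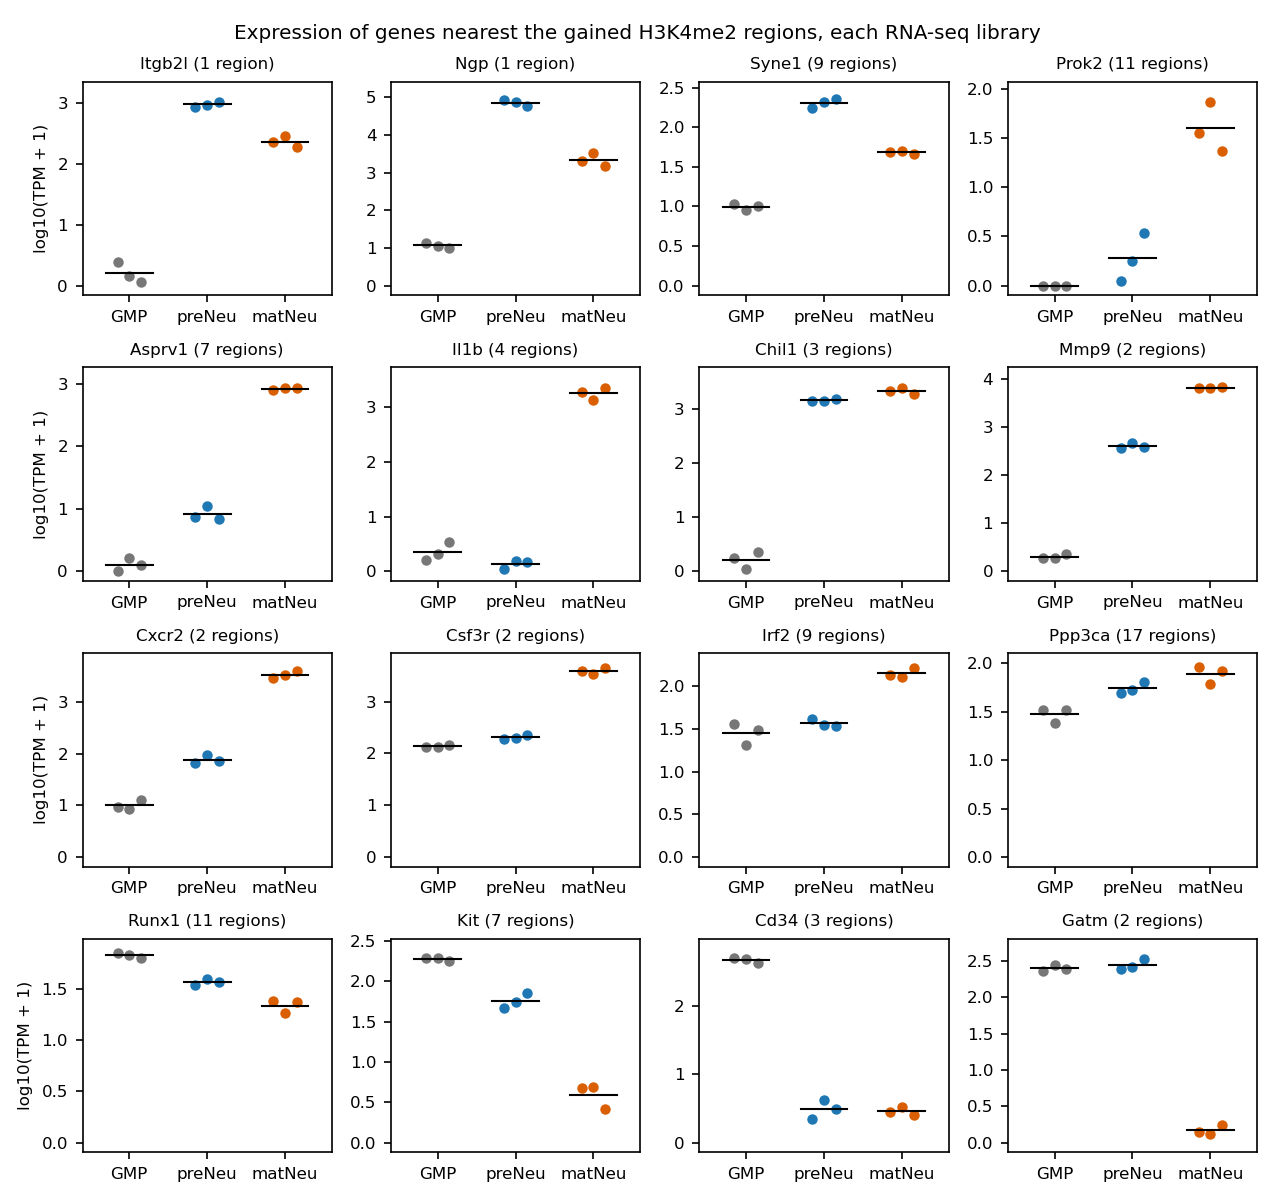
Each point is 1 RNA-seq library, each line the mean of log10(TPM + 1) of the 3 libraries of a stage, for 16 genes with the number of gained regions in the title. Itgb2l, Ngp and Syne1 peak in preNeu cells, Asprv1, Il1b, Mmp9, Cxcr2 and Csf3r in matNeu cells, and Runx1, Kit and Cd34 are highest in GMPs.

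Genes of chemotaxis and inflammation had gained regions, and in part their transcripts were high only in matNeu cells. Every gained region has a preNeu peak by the rule, so a peak earlier than the transcript is not a separate result. Il1b, the interleukin-1 beta gene, had 4 regions, with one of fold 3.43 over the promoter and one of fold 7.72 with an ATAC-seq peak 42383 bp upstream. It was at 0.577, 1.1 and 2.36 TPM in GMPs, 0.119, 0.526 and 0.471 TPM in preNeu and 1908, 1342 and 2236 TPM in matNeu cells. The preNeu values were thus no higher than those of GMPs (−0.71 ± 0.30 on the log2 scale, adjusted p = 0.0632, limma), and all matNeu values stood above both (10.36 ± 0.30 against preNeu, adjusted p = 1.24e-09, limma). Prok2, which encodes the secreted myeloid-attracting peptide prokineticin 2, carried 11 regions over 29386 bp. It was listed at 0 in all GMP libraries, at 0.112, 0.793 and 2.39 TPM in preNeu and at 34.8, 72.1 and 22.6 TPM in matNeu cells. The groups did not overlap, although the preNeu difference from GMPs did not pass the test (adjusted p = 0.115, limma) and passed it without preNeu library 1 (1.30 on the log2 scale).

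**Figure D5:**
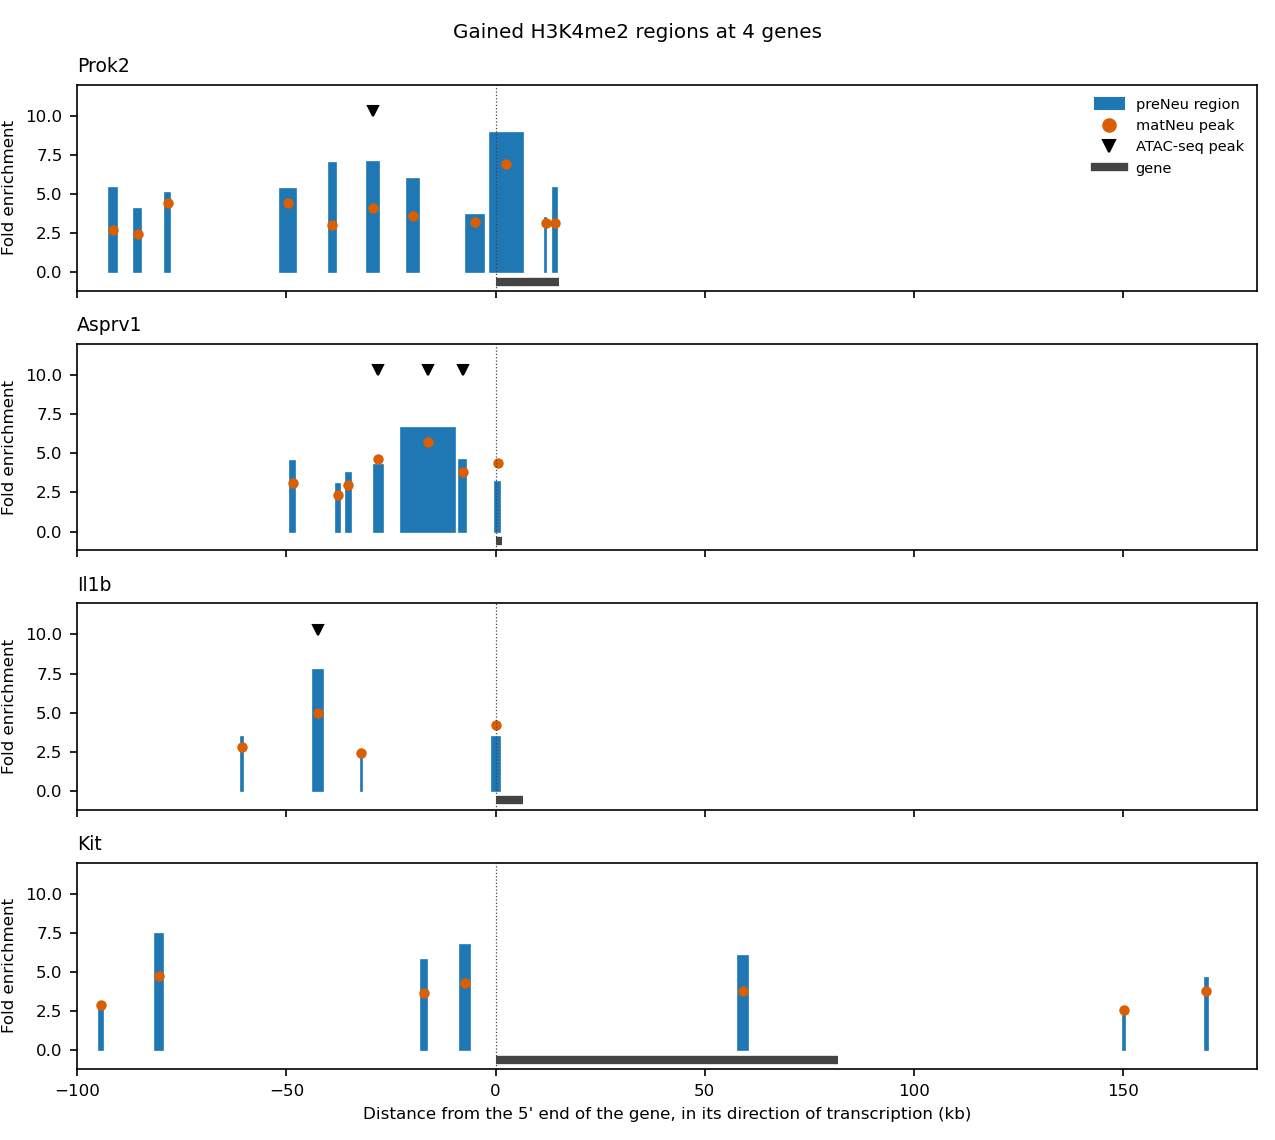
Blue bars are gained regions drawn to scale by distance (kb) from the 5' end of the gene and by preNeu fold enrichment, orange points give the fold of the overlapping matNeu peak, black triangles mark an ATAC-seq peak, and grey bars the gene. Prok2 has 11 regions, Asprv1 and Kit 7 each and Il1b 4. Over the start of Asprv1 and of Il1b the matNeu fold is above the preNeu fold (4.37 against 3.17, and 4.24 against 3.43). In most gained regions the preNeu fold is the higher, and the lists were not scaled to each other.

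Among 17 chemoattractant receptor genes, 9 had a gained region, and 7 of these 9 were higher in matNeu cells than in GMPs, with 5 already higher in preNeu cells. Of the 15 listed genes that were tested, with or without a region, 12 were higher in matNeu and 10 in preNeu cells than in GMPs. Cxcr2, the receptor that draws mature neutrophils out of the marrow and part of the matNeu sort, had 2 regions. Of these, 1 had a preNeu fold of 3.59 and overlapped a matNeu peak of fold 8.42. Cxcr2 was at 8.17, 7.65 and 11.9 TPM in GMPs, 64.7, 93.4 and 70.9 TPM in preNeu and 3027, 3400 and 3976 TPM in matNeu cells. Fpr2 and C5ar2, receptors for formyl peptides and for C5a, were at mean levels of 86.7 and 15.5 TPM in preNeu and 284 and 100 TPM in matNeu cells, with Fpr2 listed at 0 in every GMP library. Cxcr1 was listed at 0 in every GMP and preNeu library and at a mean of 40.2 TPM in matNeu cells. Cxcr4, the marrow retention receptor and part of the preNeu sort, had 4 regions and hardly moved, at 49.2, 58.7 and 55.7 TPM in GMPs, 38.6, 40.4 and 44.7 TPM in preNeu and 48.1, 43.2 and 53.3 TPM in matNeu cells. Its change in preNeu against GMP passed the test (−0.39 ± 0.14, adjusted p = 0.0371, limma) but not without GMP library 2 (−0.34) or 3 (−0.38) or preNeu library 1 (−0.35) or 2 (−0.38), and it was 0.03 with median-ratio scaling.

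Of 26 innate sensor and interleukin-1 genes in the table, 15 had a gained region. In matNeu against GMP 10 of the 15 were higher and 3 lower, and in preNeu against GMP 8 were higher and 3 lower. Over the 24 listed genes tested, 17 were higher and 4 lower in matNeu cells, and 10 higher and 6 lower in preNeu cells. Il1r2, the decoy receptor for interleukin-1, had 2 regions of 637 bp in sum and was at 1.5, 4.8 and 0 TPM in GMPs, 124, 164 and 165 TPM in preNeu and 2774, 2474 and 2774 TPM in matNeu cells. Il1rn, the interleukin-1 receptor antagonist, went from a mean of 2.39 TPM to 41.9 and 1064 TPM. Tlr13, a sensor of bacterial ribosomal RNA, had 3 regions and was at a mean of 0.768, 10.4 and 371 TPM. Nlrc4, an inflammasome sensor, was a member that fell, from 11 and 9.08 TPM to 0.39 TPM in matNeu cells (−3.14 on the log2 scale against GMPs, adjusted p = 9.41e-06, limma). The interleukin-1 beta gene and the genes of its decoy receptor and receptor antagonist thus all had a gained region.

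Most cytokine receptor and signaling genes with a gained region were higher in matNeu cells. Of 22 listed, 11 had a gained region, and 9 of these were higher in matNeu cells than in GMPs, 1 was lower, and 5 were higher and 2 lower in preNeu cells. With median-ratio scaling 9 were higher in preNeu cells. Over the 21 listed genes tested, 17 were higher and 2 lower in matNeu cells, and 7 higher and 8 lower in preNeu cells. Csf3r, the G-CSF receptor, had 2 regions inside the gene and was at 132, 131 and 142 TPM in GMPs, 191, 201 and 225 TPM in preNeu and 3946, 3340 and 4336 TPM in matNeu cells. All preNeu values were above those of GMPs (0.60 ± 0.12 on the log2 scale, adjusted p = 0.00137, limma), and the larger increase came afterwards (4.22 ± 0.12, adjusted p = 1.12e-09, limma). Ifngr1, the interferon gamma receptor gene, was the one lower in matNeu cells than in GMPs, going from 657 to 710 TPM in GMPs to 272 to 363 TPM in preNeu cells and 293 to 319 TPM in matNeu cells.

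Adhesion and migration genes had a gained region in 12 of 18, of which 8 were higher and 3 lower in preNeu cells and 10 higher and 1 lower in matNeu cells than in GMPs. Over all 18, 9 were higher and 5 lower in preNeu cells, and 14 higher and 3 lower in matNeu cells. Cd44, a hyaluronan receptor with 4 regions, went from 129 to 146 TPM in GMPs to 222 to 293 TPM in preNeu and 754 to 937 TPM in matNeu cells. Selplg, the selectin ligand PSGL-1, fell before it rose, with means of 598, 162 and 3555 TPM. Pecam1, with 7 regions, was lower from the first step on, at 88.1, 82.7 and 75.9 TPM in GMPs, 9.55, 9.15 and 16.6 TPM in preNeu and 4.68, 12.7 and 11.4 TPM in matNeu cells, where the later groups overlapped. Fc and lectin receptor genes had a region in 8 of 23, with 6 higher in each neutrophil stage than in GMPs and 1 lower in matNeu cells, whereas over all 23 the counts were 15 higher in preNeu and 20 in matNeu cells, with 2 lower in each. Several of these, such as Clec4a2 (mean 30.9, 636 and 315 TPM) and Cd300lf (1.26, 172 and 1168 TPM), belong to families of close copies, so shared reads make their levels uncertain.

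All 4 NADPH oxidase genes with a gained region, of 7 listed, were higher in both neutrophil stages than in GMPs with either scaling. All 7 listed were higher in preNeu cells and 6 in matNeu cells, with or without a region. Cybb, the catalytic subunit, peaked in preNeu cells, at 1838, 1886 and 2171 TPM against 98.6, 81.5 and 61.3 TPM in GMPs and 239, 317 and 303 TPM in matNeu cells. Of 11 lipid mediator genes, 6 had a region, with 4 higher in preNeu and 3 in matNeu cells than in GMPs, against 7 and 4 of the 10 listed genes tested. Alox5 was at 28.3, 20.3 and 21.5 TPM in GMPs, 361, 369 and 425 TPM in preNeu and 693, 794 and 824 TPM in matNeu cells. Pla2g7, which degrades platelet-activating factor, was at 0, 1.24 and 2.03 TPM in GMPs, rose to 5.76 to 5.8 TPM in preNeu cells (1.84 on the log2 scale, adjusted p = 7.18e-04, limma) and reached 1537 to 1746 TPM in matNeu cells. Lta4h, the leukotriene A4 hydrolase gene, moved the other way at the last step, from a mean of 2581 TPM to 64.3 TPM.

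The 12 genes with most gained regions took different courses of expression. All but Prok2, of 15.1 kb, were 110 kb or longer, against a median of 19.8 kb over all genes tested. Ppp3ca, the calcineurin catalytic subunit gene of 268 kb, had 17 regions and was at 32.2, 23.1 and 32.0 TPM in GMPs, 48.4, 51.2 and 62.5 TPM in preNeu and 89.4, 60.2 and 81.2 TPM in matNeu cells. The GMP values were the lowest and the later groups overlapped (1.37 ± 0.20 on the log2 scale, matNeu against GMP, adjusted p = 7.27e-05, limma). Itpr1, which encodes an inositol trisphosphate receptor, had 14 regions and fell, from 39.8, 35.5 and 25.8 TPM to 2.02, 5.21 and 5.36 TPM in preNeu and 1.16, 1.31 and 2.49 TPM in matNeu cells (−2.80 ± 0.35 in preNeu against GMP, adjusted p = 5.89e-05, limma). Pdss2, an enzyme of coenzyme Q synthesis with 13 regions, was at 12.3 to 21.2 TPM in GMPs and 12.0 to 22.9 TPM in preNeu cells, which overlapped, and at 0.186 to 0.925 TPM in matNeu cells. Kcnn3, a potassium channel gene with 9 regions, was listed at 0 in 7 of 9 libraries and never above 0.269 TPM. Many gained regions near a gene therefore went with rising, falling or barely detected transcripts.

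Of the remaining genes with 9 or more regions, Igf1r (11 regions), Chd7 (10), Xylt1 (10) and Mbp (9) were higher in matNeu cells than in GMPs, with log2 changes of 1.89 ± 0.24, 2.42 ± 0.25, 1.61 ± 0.25 and 2.04 ± 0.23. Chd7, a chromatin remodeler gene, was at 10.5, 17.9 and 14.3 TPM in GMPs, 28.4 to 48.4 TPM in preNeu and 66.4, 76.0 and 97.9 TPM in matNeu cells, without overlap. Foxn3 (12 regions), a forkhead factor gene, and Runx1 (11 regions) were lower, by −1.42 ± 0.23 and −1.62 ± 0.16 (adjusted p = 1.89e-04 and 3.05e-06, limma). Runx1 was at 69.1, 66.6 and 62.3 TPM in GMPs, 33.4, 38.7 and 35.8 TPM in preNeu and 23.0, 17.2 and 22.5 TPM in matNeu cells, falling at both steps without overlap.

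Transcription factor genes had a gained region in 33 of 58. In preNeu against GMP 14 were higher and 10 lower, and in matNeu against GMP 22 were higher and 9 lower. Over all 58 the counts were 22 and 22, and 37 and 17. With median-ratio scaling the counts of genes with a region were 18 and 7, and 23 and 7. Irf2, an interferon regulatory factor with 9 regions, was at 35.3, 19.6 and 29.6 TPM in GMPs and 40.3, 34.3 and 33.3 TPM in preNeu cells, which overlapped, and at 134, 128 and 161 TPM in matNeu cells (2.31 ± 0.21 against GMP, adjusted p = 1.58e-06, limma). Etv6, also with 9 regions, was at 54.8, 69.2 and 71.3 TPM in GMPs, 29.9, 38.2 and 36.7 TPM in preNeu and 30.9, 41.6 and 51.8 TPM in matNeu cells. It was lower in matNeu cells than in GMPs by TPM (−0.66 ± 0.20, adjusted p = 0.0122, limma) and its difference was 0.16 with median-ratio scaling. Id2 (mean 9.32, 399 and 107 TPM) and Ets1 (7.42, 133 and 26.0 TPM) were highest in preNeu cells, and Cebpd (13.8, 85.4 and 264 TPM), Klf6 (28.6, 176 and 759 TPM) and Fos (99.3, 63.0 and 1597 TPM) in matNeu cells. Zeb2 (145, 6.26 and 32.1 TPM) and Cebpa (20.4, 5.43 and 6.73 TPM) were highest in GMPs. These 7 were chosen after their values were seen, as examples of each course.

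Gained regions also lay beside genes that were lower in neutrophil stages. Of 16 progenitor genes, 4 had one, and the 3 that could be tested, Kit, Cd34 and Sox4, were lower in both neutrophil stages than in GMPs with either scaling. Of the 14 listed genes tested, with or without a region, 13 were lower in preNeu and 12 in matNeu cells. The share of listed genes with a region, 4 of 16, was close to the 25.7% over all protein-coding genes. Of the listed genes tested, 3 of 14 had a region, against 34.9% of protein-coding genes tested, and the difference was not tested. Kit, the stem cell factor receptor and a marker of the GMP and preNeu sorts, had 7 regions of fold 2.65 to 7.46. It was at 194, 191 and 177 TPM in GMPs, 45.9, 53.7 and 70.0 TPM in preNeu and 3.83, 3.89 and 1.62 TPM in matNeu cells, with no overlap. Cd34, also part of the GMP sort, had 3 regions and went from 498, 486 and 425 TPM to 1.22, 3.27 and 2.13 TPM in preNeu and 1.84, 2.35 and 1.56 TPM in matNeu cells. The fourth, Hoxa10, was below the expression filter.

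Cell cycle genes had a gained region in 11 of 31. In preNeu against GMP 8 of the 11 were higher and 2 lower, and in matNeu against GMP 2 were higher and 9 lower. Over all 31 the counts were 15 and 11 in preNeu and 4 and 27 in matNeu cells. Mki67, a marker of dividing cells, was at 72.4, 73.2 and 64.3 TPM in GMPs, 186, 194 and 238 TPM in preNeu and 4.73, 3.3 and 5.56 TPM in matNeu cells. Ccnb2, a mitotic cyclin, was at 192 to 216, 419 to 451 and 1.29 to 2.62 TPM. Cdk6 had 3 regions and fell at both steps, from 164 to 170 TPM to 18.7 to 30.5 TPM and 1.74 to 2.19 TPM. Cdkn1b, which encodes the cell cycle inhibitor p27, was among those that increased, with means of 4.82, 11.1 and 36.3 TPM.

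Among genes with a gained region at the promoter, the largest increases of matNeu against GMP beside Chil1, Adam8, Il1b and Asprv1 were those of Cd101 and Ceacam10. Cd101, a surface receptor of mature neutrophils, was at 0, 0 and 0.0554 TPM in GMPs, 10.2, 12.4 and 13.1 TPM in preNeu and 398, 385 and 415 TPM in matNeu cells. Chil1, a secreted chitinase-like protein, was at 0.756, 0.087 and 1.31 TPM in GMPs, 1381, 1362 and 1533 TPM in preNeu and 2131, 2418 and 1845 TPM in matNeu cells, and one of its 3 regions reached a fold of 11.1. Both genes went up at the first step, Chil1 to most of its later level. Ceacam10 was listed at 0 in all GMP libraries, at 45.7, 43.8 and 23.1 TPM in preNeu and at 391, 520 and 269 TPM in matNeu cells. Reads shared with other Ceacam genes make that level uncertain.

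The largest decreases among genes with a gained region at the promoter were those of Prg2, Knstrn, Nup210 and Adgrg1. Prg2, the eosinophil major basic protein gene, was at 744, 863 and 671 TPM in GMPs, 16.5, 17.5 and 14.2 TPM in preNeu and 0, 0.405 and 0.227 TPM in matNeu cells. Prg2 is 1 of 4 eosinophil markers whose sum was 897 to 1151 TPM in GMPs, 35.9 to 42.0 TPM in preNeu and 31.6 to 49.3 TPM in matNeu cells, and the part of eosinophil precursors in its fall was not tested. Knstrn, a kinetochore protein gene, was at 171 to 187 TPM in GMPs and 236 to 249 TPM in preNeu cells and at 0.141 to 0.871 TPM in matNeu cells. Nup210, a nuclear pore gene, fell at both steps, from 248, 240 and 257 TPM to 39.0, 55.6 and 64.0 TPM and 1.18, 2.5 and 1.55 TPM. Adgrg1, an adhesion receptor gene of progenitors, was at 132, 173 and 153 TPM in GMPs, 2.83, 3.54 and 4.97 TPM in preNeu and 0, 1.55 and 1.0 TPM in matNeu cells.

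Among genes with at least 2 gained regions, the largest decreases after that of Prg2 were those of Stmn1, Gatm and Psat1. Stmn1, a microtubule-destabilizing protein gene with 2 regions of 8683 bp in sum, was at 773, 626 and 817 TPM in GMPs and 690, 556 and 469 TPM in preNeu cells, which overlapped, and at 2.43, 3.22 and 2.7 TPM in matNeu cells. Gatm, which catalyzes the first step of creatine synthesis, was at 228 to 282 TPM in GMPs, 247 to 336 TPM in preNeu and 0.331 to 0.747 TPM in matNeu cells. Psat1, an enzyme of serine synthesis with 4 regions, fell earlier, from 218 to 277 TPM to 28.3 to 42.1 TPM and 0.179 to 0.688 TPM. In matNeu against GMP these decreases were −7.61 ± 0.17, −7.41 ± 0.18 and −7.38 ± 0.22 on the log2 scale (adjusted p of 1.19e-10, 1.74e-10 and 5.45e-10, limma).

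Of the 11313 gained regions, 2 overlapped a peak of the CHD4 list of Gfi1-/- GMPs, which lack GFI1. The shares were 2.41% of peaks found only in the preNeu list, 10.5% of peaks of all 3 stages and 20.7% of gained peaks with CHD4. The rule had removed regions with a CHD4 peak of WT GMPs, and the Gfi1-/- list is shorter (7316 against 35790 peaks). The low count is therefore not a separate result. Of the 2 regions, 1 lay 5575 bp upstream of a TSS of Wbp1l, and both held an ATAC-seq peak.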

How the data were processed

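The deposited data were peak lists of H3K4me2, CHD4 and ATAC-seq and a table of TPM values. The submitters' processing notes name FastQC 0.11.5, MultiQC 1.6, Trimmomatic 0.36, BWA 0.7.17, MACS2 2.1.0 and kallisto 0.44.0, with mm10 as the build. In the lists, the authors' peak caller attached to each peak its fold enrichment and its −log10 q, with 1 library per list. Per the labels, the deposited TPM values of 9 RNA-seq libraries (3 per cell type) were estimated per gene from stranded mRNA libraries. Neither holds counts, so depth is unknown. Title and cell type label differ for 13 of 18 samples, and titles were followed. Nothing states that the libraries came from separate mice, so p-values measure the spread between these samples, which may be technical.

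Overlaps were taken at 1 bp, and distances run from the middle of a region to the nearest protein-coding TSS of GENCODE M21. Motif letters were searched on both strands of the 400 bp at the middle of each region, in GRCm38. Shares have 95% Wilson intervals and differences Newcombe intervals. Genes that reached 1 TPM in 3 or more libraries were fitted on log2(TPM + 1), with a pseudocount of 1 added to the deposited values, in limma 3.58.1 (R 4.3.3) with moderated variances over all 9 libraries, two-sided, with Benjamini-Hochberg adjustment over all genes tested. The fit was tested on simulated data. Genes were named when they were among the 12 with most regions, had the largest significant changes of matNeu against GMP (6 up and 4 down with a region at the promoter, 4 up and 4 down with at least 2 regions), lay nearest the 6 regions of highest fold, or were, per gene list, the members with most regions. Other genes given with values (Camp, Lyz2, Ear2, Fpr2, C5ar2, Cxcr1, Il1rn, Nlrc4, Selplg, Lta4h, Cdkn1b, Hoxa10 and 7 transcription factor genes) were chosen after their values were seen. One gene that the rule names is not reported here. The members and lists were chosen with earlier results of these data known. H3K4me3 and GFI1 lists were not used here, because their sequence names include some that are not of GRCm38.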

Additional observations from a re-analysis of the deposited data

How the results depend on the processing

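Among the 64 named genes, 63 were tested, and 2643 values were computed under 17 other settings. Of these, 2530 kept their direction and their side of the threshold, 58 lost the call, 30 gained one and 25 changed direction, 15 of them on leaving out 1 library. The number of member regions was 2188 when both peaks had a −log10 q of at least 5, with 13.5% at promoters and 19.2% with an ATAC-seq peak, and 7372 with lists of equal length, with 9.98% and 8.52%. With promoters as 1 kb on either side of a TSS, 8.08% lay at one. Shares of all gained regions with each motif, in 200 bp, in 400 bp placed 2 kb downstream and in 400 bp centred on the ATAC-seq peak, were 13.9%, 15.4% and 28.5% for TTGCNNAA, 4.17%, 2.42% and 14.5% for GAGGAAGT, 18%, 29.8% and 38.4% for the RUNX letters, 6.66%, 11.8% and 18.2% for the AP-1 letters, 25.4%, 41.2% and 33.4% for the IRF core letters, 12.2%, 26.1% and 15.4% for the GFI1 letters, 7.05%, 11.6% and 15.2% for the KLF letters, 0.753%, 1.3% and 0.896% for the STAT letters, and 10.1%, 21.1% and 13% for the GATA letters. For the C/EBP palindrome TTGCGCAA the shares in 200 bp and downstream were 0.0886% and 0.0177%. A smaller window holds fewer letters by construction, and for the others the cause was not tested. With the replicate number as a block, the counts higher and lower were 1000 and 1516, 1350 and 1922, and 1219 and 1590 in preNeu against GMP, matNeu against GMP and matNeu against preNeu. Same-numbered libraries did not deviate together (r from −0.039 to 0.123), so the numbers were not taken as pairs. A minimum log2 change of 1 left 658 genes higher in preNeu than GMP. Median-ratio scaling moved the medians to 0.13, 0.32 and 0.11. An alternative chosen after seeing the data, regions whose peaks both had a −log10 q of at least 5, gave 396 and 429, 516 and 548, and 445 and 504 genes higher and lower, with medians of −0.04, −0.07 and −0.06, from fewer genes. The median of matNeu against GMP was −0.28 with the nearest TSS within 20 kb or of any gene in the table, −0.46 with a pseudocount of 0.1, −0.13 without the filter and −0.46 when the matNeu peak reached no GMP peak, the last also chosen after seeing the data. The median of matNeu against preNeu without the filter was −0.02. Leaving out each library gave 896 to 982 genes higher and 1329 to 1462 lower in preNeu than GMP (median −0.28 to −0.16), 1289 to 1317 and 1864 to 1910 in matNeu than GMP (−0.43 to −0.38) and 1110 to 1190 and 1470 to 1573 in matNeu than preNeu (−0.25 to −0.14). With median-ratio scaling direction changed for Cd34 (matNeu minus preNeu, 0.19), Cxcr4 (preNeu minus GMP, 0.03, and matNeu minus GMP, 0.64), Etv6 (matNeu minus GMP, 0.16), Nlrc5 (matNeu minus GMP, 0.45), Pecam1 (matNeu minus preNeu, 0.04), Slpi (preNeu minus GMP, 0.20), Stmn1 (preNeu minus GMP, 0.05) and Trem3 (matNeu minus preNeu, 0.21), and with a pseudocount of 0.1 for Sox4 (matNeu minus preNeu, −0.48). Over the fits that left out 1 library, differences near 0 that did not pass the test took both signs for Adamts2 (preNeu minus GMP, −0.04 to 0.06), Cd34 (matNeu minus preNeu, −0.33 to 0.14), Ifngr1 (matNeu minus preNeu, −0.07 to 0.14), Pdss2 (preNeu minus GMP, −0.07 to 0.37), Pecam1 (matNeu minus preNeu, −0.56 to 0.08), Sox4 (matNeu minus preNeu, −0.25 to 0.14) and Xylt1 (preNeu minus GMP, −0.20 to 0.15). Depth is unknown and each peak list is 1 library, so a region without a peak in GMPs is one not listed, and the spread of peak heights between animals is not known.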

Other observations

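Gained regions lay apart from each other more often than in groups. Of 11282 pairs of neighbouring gained regions on a chromosome, 1415 were within 5 kb of each other, and the median gap was 53596 bp. On the autosomes they made up 20.8% (chromosome 13) to 25.5% (chromosome 16) of the preNeu H3K4me2 peaks, and 22.9% on the X chromosome. The widest gained region, 16939 bp, lay 95826 bp upstream of Pitx1, and regions of 11199 to 12918 bp lay in introns near Akna, Clint1 and Rev1.

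The repertoire of listed factors near gained regions differed in stage. Erg, with 8 regions, was at a mean of 14.2 TPM in GMPs, 31.1 TPM in preNeu and 1.29 TPM in matNeu cells, and fell in matNeu against preNeu by 3.99 on the log2 scale (adjusted p = 5.08e-06, limma). Gfi1 itself had 1 region and was at 10.5, 24.2 and 0.0482 TPM, falling in matNeu against preNeu by 4.57 (adjusted p = 9.26e-07, limma). This fall is one of RNA. By western blot the authors reported more GFI1 protein in matNeu than in preNeu cells. Rara, the retinoic acid receptor alpha gene, was at 4.57, 2.22 and 140 TPM and was higher in matNeu than in preNeu cells by 5.48 (adjusted p = 1.03e-08, limma). These genes were chosen after their values were seen.

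Genes near gained regions with the C/EBP letters (1503 tested) had medians of −0.13 in preNeu against GMP and −0.20 in matNeu against GMP, against −0.29 and −0.51 for the 2638 genes whose regions held none. Their median gene length was 50.9 kb against 37.7 kb. A gene with more gained regions also has more places for the letters. The parts of gene length and of region number in that difference were not tested.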
